A study of Homo sapiens with 12 samples.

Results

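Cells in which EZH2 had been knocked down were compared with knocked-down cells given EZH2 back, in its normal form or as T350A, in which alanine replaces a threonine. The comparison pooled the 3 arrays of EZH2 re-expression and the 3 of T350A re-expression, each group with equal weight, and subtracted the mean of the 3 si-EZH2 arrays. It thus used 9 of the study's 12 arrays, and all 12 entered the fit. The arrays were Illumina BeadChips, and the cells were BJ, an established line of human fibroblasts. All groups received a lentivirus for 72 h and then an siRNA for 60 h. The si-EZH2 group had the control virus and an siRNA against EZH2. The EZH2 re-expression group had a virus carrying siRNA-resistant EZH2 together with that siRNA, and the T350A re-expression group a virus carrying the siRNA-resistant T350A form together with the same siRNA. The si-Control group had the control virus and a control siRNA. The pooled comparison therefore changed the virus while the siRNA stayed the same, and any effect of the virus other than its EZH2 cannot be told apart from that of EZH2.

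EZH2 is the catalytic subunit of Polycomb repressive complex 2 (PRC2), which methylates lysine 27 of histone H3 and so keeps target genes silent. Cyclin-dependent kinases phosphorylate EZH2 on the threonine that T350A lacks, and an alanine there cannot take the phosphate. In fibroblasts EZH2 is made mostly by dividing cells and falls as they age in culture.

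In the mean of both re-expressions 10 of 18 measured inflammatory cytokine and chemokine genes were called lower than in si-EZH2. Of 32 genes of the G2 and M phases 8 were called higher, with smaller differences for T350A than for EZH2. None of those 8 was called with T350A alone. Of 12640 genes read by a probe with a single symbol, 392 were called in the pooled comparison (3.1%), with 186 higher (1.47%) and 206 lower (1.63%). Calls were made where limma, which fits a linear model to every probe, gave an adjusted p below 0.05. Among called genes, each read by its brightest probe, IL24 (2.39-fold lower) and CXCL8 (2.13-fold lower) fell most, and the largest rise after EZH2 itself was that of RNFT2 (1.83-fold higher). Values below are log2 intensities after background correction and quantile normalization, and differences are log2 differences with limma's standard error.

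Each array detected between 20658 and 21910 of 47231 probes (43.7% to 46.4%), and the median SD between replicates was 0.153. Whether the replicates came from separate cultures is not in the labels. The p-values therefore cover the spread between these arrays alone, whose number limits the precision. All 10 fibroblast markers were detected on all 12 arrays at log2 levels of 11.25 to 14.82, and 0 were called in the pooled comparison. Their summed linear level was 177000 to 180000 in si-EZH2, 159000 to 160000 with EZH2 re-expression and 159000 to 169000 with T350A re-expression, and 9 of the 10 were lower with a median of -0.15. Of 10 epithelial markers 5 were detected on any array and 2 on all 12, with sums of 297 to 303 in si-EZH2, 323 to 355 with EZH2 and 288 to 340 with T350A. CDH1, ESRP1, GRHL2, KRT5 and KRT14 were detected on no array. Of 8 endothelial markers 2 were detected on any array, with sums of 262 to 281, 252 to 282 and 263 to 275 in the same order, and CDH5, CLDN5, ERG, KDR, TIE1 and VWF were detected on no array. Of 9 leukocyte markers 4 were detected, with sums of 2140 to 2500, 2280 to 2740 and 2380 to 2470, and CD163, CD3E, CD3G, LYZ and the pan-leukocyte PTPRC were detected on no array. The arrays measured whole cultures, so fewer cells of a type and less RNA per cell cannot be told apart.

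The transcript of EZH2 was read by 3 probes, which behaved differently. On ILMN_2364529 the 6 re-expression arrays ran from 7.04 through a median of 7.89 to 8.50, and the si-EZH2 arrays from 4.59 to 4.73 with 0 of 3 detected. The transcript was thus at least 7.39-fold higher with re-expression (difference 3.18 ± 0.10, adjusted p = 6.15e-11). ILMN_1652913 ran from 7.93 through 8.26 to 8.62 with re-expression against 5.12 to 5.59 in si-EZH2, a rise of 2.88 ± 0.11 (7.37-fold, adjusted p = 3.74e-10). Both probes also read higher with re-expression than in si-Control, by 2.20 on ILMN_2364529 and by 1.95 on ILMN_1652913, so the transcript stood above the level of cells with the control siRNA. On both probes the groups were fully separate, and the 3 T350A arrays were all lower than the 3 with EZH2.

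The remaining probe, ILMN_1708105, read 5.56, 5.76 and 5.77 in si-EZH2 and between 5.68 and 6.14 with re-expression, and the groups overlapped. Its difference was 0.18 ± 0.11 (95% interval -0.06 to 0.42, adjusted p = 0.421), and it remained 0.91 below si-Control (adjusted p = 0.000227). The deposited table gives no position for these probes in the transcript, and whether this one reads a stretch that the viral copy lacks was not tested. None of the other 10 measured PRC2 subunits was called. Their differences ran from -0.17 for the histone-binding RBBP7 to 0.39 for EZH1, the other catalytic subunit (adjusted p = 0.224), with the core members SUZ12 at -0.16 and EED at -0.09.

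**Figure D1:**
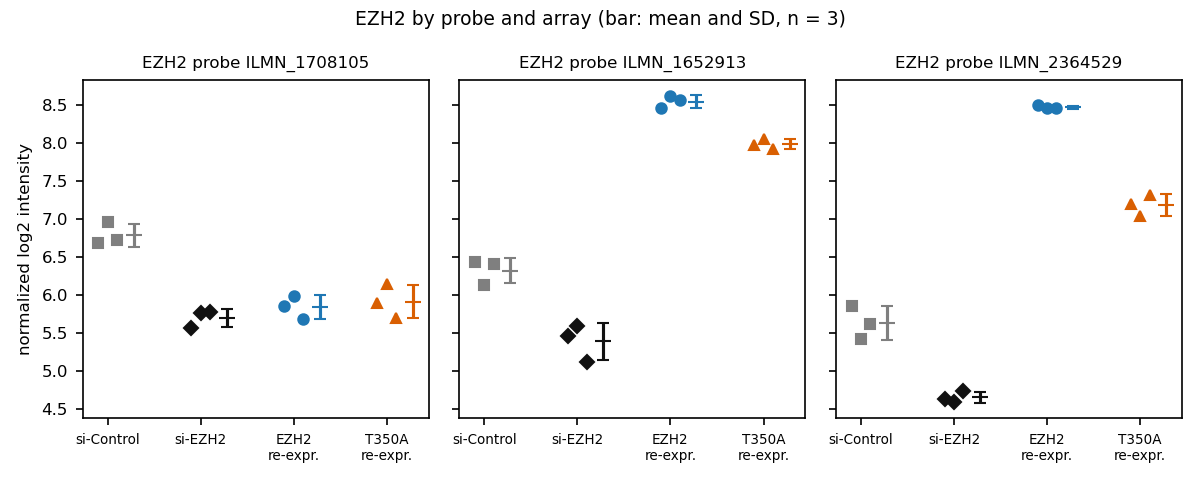
Normalized log2 intensity of EZH2 (vertical axis) on each of its 3 probes, 1 panel per probe, with the 4 groups along the horizontal axis, a point per array and, beside them, the group mean with its SD (n = 3). The 6 re-expression arrays sit above all si-EZH2 and si-Control arrays on ILMN_2364529 and ILMN_1652913, and beside the si-EZH2 arrays on ILMN_1708105.

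Across all probes, 558 of 23313 were called in the pooled comparison (2.39%), of which 266 were higher (1.14%) and 292 lower (1.25%). At least 1.5-fold differences were seen for 94 of these (0.403%), 44 higher (0.189%) and 50 lower (0.214%). The share called higher was 47.7% and became 36% of 539 with median scaling in place of quantile normalization. The count fell most without si-EZH2 replicate 1 (71) and without si-EZH2 replicate 3 (105), whereas it was 425 without si-EZH2 replicate 2. Leaving out EZH2 re-expression replicates 1, 2 and 3 gave 315, 267 and 288, and leaving out T350A re-expression replicate 1 gave 370. Of the 558 called probes, 511 had all 6 re-expression arrays on 1 side of all 3 si-EZH2 arrays, as had 2286 of the 23313 tested.

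How alike the re-expressions were could be read from the difference between them, which is independent of their mean because the groups are of equal size. Only the EZH2 probe ILMN_2364529, among the 558 called, also differed between T350A and EZH2 re-expression after adjustment, by -1.29 (95% interval -1.54 to -1.04, adjusted p = 0.000254). Over all 23313 probes 2 were called in that comparison (0.00858%), and 2050 had an unadjusted p under 0.05. The other was COG5 ILMN_1721535, named after its values were seen. It read 7.31, 7.57 and 7.41 in si-EZH2, about 8.01 on average with EZH2 re-expression and 7.18 with T350A, so that its pooled difference of 0.17 averaged opposite shifts (adjusted p = 0.32). Without EZH2 re-expression replicate 1, and without T350A re-expression replicates 1 or 3, the count of called probes between the re-expressions was 1.

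The mutant's shift was the smaller of the pair in most called probes. T350A differed less from si-EZH2 than EZH2 did in 429 of 558 (76.9%), against 12840 of all 23313 tested (55.1%). The EZH2 transcript itself was lower with T350A than with EZH2, by limma at -1.29 on ILMN_2364529 (adjusted p = 0.000254) and -0.56 on ILMN_1652913 (adjusted p = 0.211). An effect of the mutation therefore cannot be told apart from that of a lower transcript level. Among probes called higher the median difference from si-EZH2 was 0.53 with EZH2 and 0.42 with T350A, and among those called lower -0.52 and -0.42. The single comparisons called 671 probes with EZH2 (2.88%) and 24 with T350A (0.103%). All 3 comparisons share the si-EZH2 arrays. The median standard error was 0.107 in the pooled comparison and 0.124 in a single one, and the smallest difference called was 0.325 pooled, 0.358 with EZH2 and 0.55 with T350A.

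**Figure D2:**
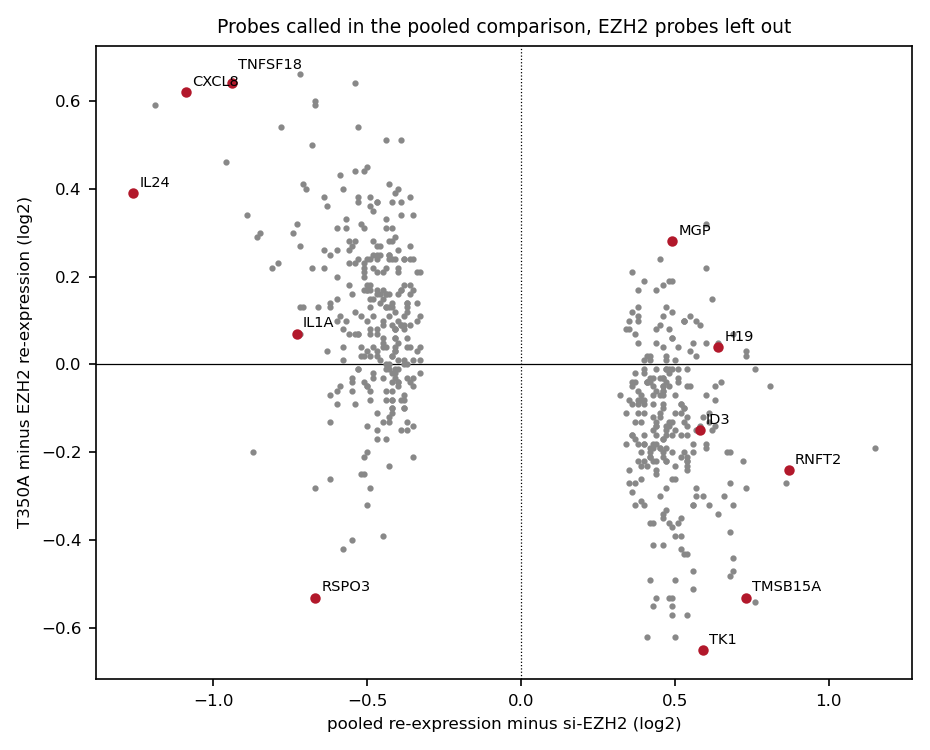
Each point is a probe called in the pooled comparison, with the EZH2 probes left out: the pooled difference from si-EZH2 is on the horizontal axis and T350A minus EZH2 re-expression on the vertical axis, both in log2 units. Probes called lower lie mostly above 0 and those called higher mostly below 0, the side on which T350A is nearer to si-EZH2 than EZH2 is.

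Inflammatory cytokines and chemokines formed the group with the highest share of calls. These are secreted proteins by which stressed or ageing fibroblasts recruit and activate immune cells. Of 18 measured members 10 were called lower and 0 higher (55.6%, against 3.1% of all genes tested). Their median difference was -0.54, against -0.01 over all genes tested, and all 18 were below 0. In 11 of the 18, every re-expression array lay below every si-EZH2 array, where 1501 of all 12640 genes had the 6 arrays on 1 side and 3.1% were called. The median ran from -0.67 to -0.41 over 24 alternatives, and the number called lower from 6 to 11, with 6 both without si-EZH2 replicate 1 and without si-EZH2 replicate 3.

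Promoter stretches of 4 of the called members are printed here because they share a motif to which NF-kappaB, a main activator of these genes, is known to bind. Each is the 250 bases before the start site from RefSeq (GRCh38.p14), in the direction of the gene, with letters matching GGANNTTCC in capitals. In CXCL8, a match to the AP-1 motif TGANTCA is in capitals as well. CXCL8 lies at chr4:73740319-73740568 (+ strand), CXCL6 at chr4:73836428-73836677 (+), CXCL2 at chr4:74099196-74099445 (-) and IL6 at chr7:22726950-22727199 (+).
CXCL8: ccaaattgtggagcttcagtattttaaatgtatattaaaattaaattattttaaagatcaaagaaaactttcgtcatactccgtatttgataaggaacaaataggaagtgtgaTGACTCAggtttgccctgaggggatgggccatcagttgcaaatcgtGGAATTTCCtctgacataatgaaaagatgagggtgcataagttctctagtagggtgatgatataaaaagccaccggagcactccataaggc
CXCL6: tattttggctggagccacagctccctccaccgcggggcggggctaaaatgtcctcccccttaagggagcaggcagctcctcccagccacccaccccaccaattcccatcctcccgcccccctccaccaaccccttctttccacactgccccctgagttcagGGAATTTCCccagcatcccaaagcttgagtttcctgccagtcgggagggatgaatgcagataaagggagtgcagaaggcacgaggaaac
CXCL2: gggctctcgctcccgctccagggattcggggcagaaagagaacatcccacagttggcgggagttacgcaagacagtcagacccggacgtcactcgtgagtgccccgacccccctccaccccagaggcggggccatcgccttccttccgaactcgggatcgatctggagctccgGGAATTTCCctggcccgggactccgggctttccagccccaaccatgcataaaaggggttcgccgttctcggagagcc
IL6: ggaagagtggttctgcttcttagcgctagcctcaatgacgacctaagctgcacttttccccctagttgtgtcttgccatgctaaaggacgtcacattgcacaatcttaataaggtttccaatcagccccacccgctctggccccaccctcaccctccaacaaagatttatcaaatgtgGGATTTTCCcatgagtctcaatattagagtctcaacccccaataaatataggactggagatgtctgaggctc
The first base of the GGANNTTCC match stood at -91 in CXCL8, -89 in CXCL6, -77 in CXCL2 and -72 in IL6, counted from the start site, and that of TGANTCA at -137 in CXCL8. Both strands were searched. Of the 10 called members 9 had a promoter in the table (not CCL2), and 4 of these held GGANNTTCC (44.4%), against 1060 of all 27305 promoters (3.88%). TGANTCA was found in 3 of the 9, those of CXCL8, IL11 and IL1A (33.3%), against 1801 of 27305 (6.6%). Of the 8 members not called, 6 had a promoter in the table, below the share of 80% needed for a comparison, and 3 of those 6 held GGANNTTCC as well, namely CXCL1, CXCL3 and CXCL5. These matches describe letters in a window and were not measured as bound sites.

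CXCL8, the main chemokine for neutrophils, read 11.76, 11.78 and 11.76 in si-EZH2, 10.32, 10.37 and 10.40 with EZH2 and 10.91, 10.92 and 11.12 with T350A. The si-Control arrays read 10.03, 9.85 and 9.84. All 6 re-expression arrays thus fell between the other groups, those of EZH2 nearer to si-Control and those of T350A nearer to si-EZH2. The pooled difference was -1.09 ± 0.08 (adjusted p = 1.04e-05). The difference between the mutant and EZH2 was 0.62 (95% interval 0.41 to 0.83) and missed the threshold (adjusted p = 0.0637). The pooled level remained 0.77 above si-Control (adjusted p = 0.000104), and the gene's other probe fell by 1.19 (adjusted p = 5.65e-05).

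IL24, a cytokine of the IL-10 family, read 8.61, 8.54 and 8.57 in si-EZH2, then 7.28, 7.03 and 7.05 with EZH2 and 7.49, 7.62 and 7.42 with T350A. Its si-Control arrays, at 6.39, 6.85 and 6.62, were lower than all of them. The pooled difference was -1.26 ± 0.10 (adjusted p = 1.82e-05), and T350A lay 0.39 above EZH2 (95% interval 0.14 to 0.65, adjusted p = 0.36). A dimmer IL24 probe, ILMN_1725814, was at -0.41 and was not called (adjusted p = 0.131). TNFSF18, which costimulates T cells by way of a TNF-type receptor, read 7.11, 7.11 and 7.02 in si-EZH2, 5.78, 5.60 and 6.08 with EZH2 and 6.41, 6.42 and 6.55 with T350A. The ligand was 1.91-fold lower (-0.94 ± 0.11, adjusted p = 0.00116), and again the T350A arrays lay between those of EZH2 and si-EZH2 (T350A minus EZH2 0.64, 95% interval 0.37 to 0.91, adjusted p = 0.157).

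The interleukin-1 cytokines read close values with both forms. IL1A, which starts inflammatory signalling in fibroblasts, read 8.49, 8.26 and 8.36 in si-EZH2 and 7.59, 7.51 and 7.71 with EZH2 against 7.64, 7.51 and 7.87 with T350A. It fell by 0.73 ± 0.10 (adjusted p = 0.00286), with a difference between the forms of 0.07 (95% interval -0.17 to 0.31). IL1B, with the cytokines IL6, CXCL6, CCL2 and CXCL2, was outside the naming rule and was chosen after its values were seen. It read 10.77, 10.55 and 10.81 in si-EZH2 and 9.96 to 10.28 with re-expression, and fell by 0.62 ± 0.09 (adjusted p = 0.00453). None of the 6 arrays reached the si-EZH2 level in either gene, which for IL1A was a condition of its naming.

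IL6, the acute-phase cytokine, read 10.50, 10.37 and 10.63 in si-EZH2 and 9.36 to 10.02 with re-expression (-0.71 ± 0.12, adjusted p = 0.00937). Its adjusted p was 0.0598 without si-EZH2 replicate 1 and 0.0699 without si-EZH2 replicate 3. IL11, of the IL-6 family, read 7.64, 8.16 and 7.85 in si-EZH2 and 6.95 to 7.41 with re-expression (-0.72 ± 0.13, adjusted p = 0.0114, and 0.058 without si-EZH2 replicate 3). Both cytokines were separate between the groups, which for IL11 was a condition of its naming, and remained above si-Control, by 0.81 and 0.65. The monocyte chemokine CCL2 read 13.29, 13.17 and 13.07 in si-EZH2 and 12.47 to 12.87 with re-expression (-0.48 ± 0.09, adjusted p = 0.0147, and 0.0975 without si-EZH2 replicate 1). CCL2 came within 0.24 of si-Control (adjusted p = 0.132).

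The neutrophil chemokines beside CXCL8 moved less. CXCL6 read 8.88, 8.71 and 9.06 in si-EZH2 and 8.21 to 8.54 with re-expression, while si-Control was at 6.96, 7.12 and 7.25. It fell by 0.49 ± 0.11 (adjusted p = 0.027) and stayed 1.29 above si-Control. That call was lost in 5 of the 12 fits that left out an array (highest adjusted p 0.149 without si-EZH2 replicate 3), and that of CXCL2 (-0.43, adjusted p = 0.0421) in 9 of the 12, up to the same value. CXCL1 read 9.65, 10.26 and 9.60 in si-EZH2 and 9.29 to 9.97 with re-expression, so the groups overlapped, with a difference of -0.23 ± 0.16 (adjusted p = 0.485). The other members not called were CXCL3 (-0.60, adjusted p = 0.235), CCL7 (-0.59, adjusted p = 0.067), CCL8 (-0.34), CSF1 (-0.23), LIF (-0.15), TSLP (-0.08) and CXCL5 (-0.01).

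**Figure D3:**
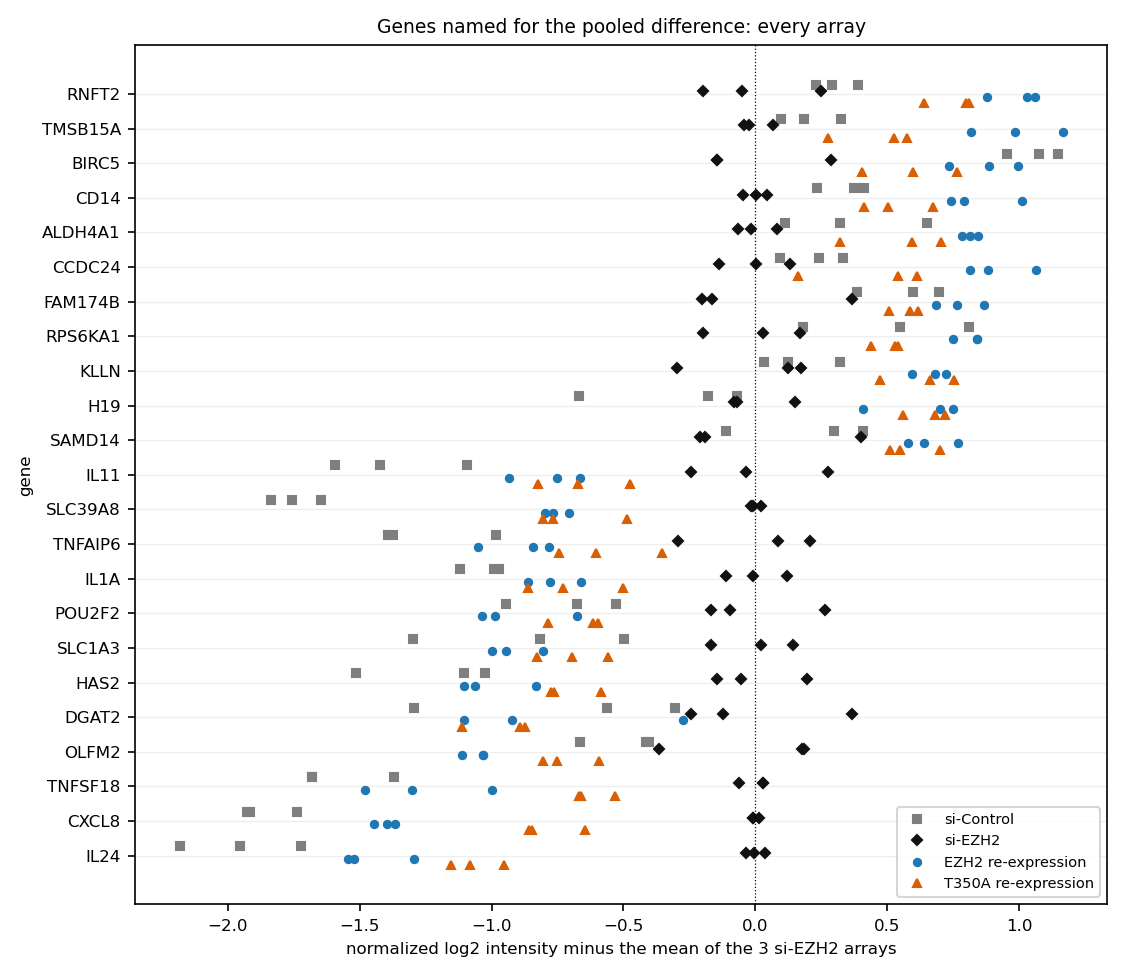
Normalized log2 intensity of each array minus the mean of the 3 si-EZH2 arrays (horizontal axis, dotted line at 0) for the genes named for the largest pooled rises and falls besides EZH2, 1 row per gene and a point per array, coloured by group. In CXCL8 and IL24 all re-expression arrays lie between si-EZH2 and si-Control, and in RNFT2 they lie above both.

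Regulators of the inflammatory response moved less than the cytokines. Calls were made for 6.25% of the NF-kappaB list, 12.1% of the interferon list and 16.7% of the AP-1 list, against 3.1% of all genes tested. Of 16 genes of NF-kappaB feedback and targets 1 was called lower, the coactivator BCL3 (-0.34, adjusted p = 0.0395, lost in 9 of the 12 fits that left out an array, up to 0.159 without si-EZH2 replicate 3, and 0.0572 with the replicate number as a block), and the median was -0.14. Of 33 interferon-stimulated genes 4 were called lower: IFIH1, a sensor of viral RNA (-0.44), USP18, which removes ISG15 (-0.51), SAMD9L (-0.38) and IFI44L (-0.35, with a dimmer probe at -0.19, adjusted p = 0.345). Their median was -0.17, and 0 were called without any one of the si-EZH2 arrays or without EZH2 re-expression replicate 3. Of 18 immediate early and AP-1 genes 3 were called lower, with a median of -0.19. FOSL1, an AP-1 subunit, read 8.57, 8.45 and 8.69 in si-EZH2, 8.04, 7.86 and 7.87 with EZH2 and 7.74, 8.11 and 8.02 with T350A (-0.63 ± 0.12, adjusted p = 0.0122). The T350A difference from EZH2 was 0.03 for FOSL1 (95% interval -0.25 to 0.31), a gene named in part because the forms differed little. Its pooled call was lost without si-EZH2 replicate 1 (adjusted p = 0.0674) and without replicate 3 (adjusted p = 0.0842). EGR1 was at -0.46 (adjusted p = 0.0222) and JUND at -0.42 (adjusted p = 0.0398), and 0 of the 18 were called without si-EZH2 replicate 3, 1 without si-EZH2 replicates 1 or 2 and 1 without EZH2 re-expression replicate 2.

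Other genes that stood above si-Control in si-EZH2 fell with the cytokines. HAS2, which synthesises hyaluronan, read 6.05, 6.39 and 6.14 in si-EZH2, 5.13, 5.36 and 5.09 with EZH2 and 5.43, 5.42 and 5.61 with T350A (-0.85 ± 0.12, 1.81-fold lower, adjusted p = 0.00325). TNFAIP6, a secreted protein that binds hyaluronan, fell by 0.73 ± 0.13 (adjusted p = 0.0114, and 0.0761 without si-EZH2 replicate 3). Both had been above si-Control in si-EZH2, HAS2 by 1.21 and TNFAIP6 by 1.25. Both were separate between the groups, as the rule that named them required. SLC39A8, a zinc importer, read 10.22, 10.23 and 10.26 in si-EZH2, 9.47, 9.44 and 9.53 with EZH2 and 9.75, 9.43 and 9.47 with T350A. The zinc importer fell by 0.72 ± 0.09 (adjusted p = 0.00199), with a T350A minus EZH2 difference of 0.07 (95% interval -0.16 to 0.29), and stayed 1.02 above si-Control (adjusted p = 1.3e-05).

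STC1, a secreted glycoprotein hormone, came close to the si-Control level. It read 11.15, 11.37 and 11.19 in si-EZH2, 10.73, 10.63 and 10.69 with EZH2, 10.71, 10.45 and 10.49 with T350A and 10.60, 10.60 and 10.62 in si-Control. The fall was 0.62 ± 0.09 (adjusted p = 0.00351), and the pooled level differed from si-Control by 0.01 (95% interval -0.18 to 0.20, adjusted p = 0.959). CH25H, which makes 25-hydroxycholesterol, fell by 0.51 (adjusted p = 0.0243) but remained 1.23 above si-Control. Its call was lost without si-EZH2 replicate 2 (adjusted p = 0.0709), without si-EZH2 replicate 3 (0.123) and without EZH2 re-expression replicate 3 (0.0523).

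The remaining large falls were in genes of varied roles. OLFM2, a secreted olfactomedin, read 7.08, 6.54 and 7.09 in si-EZH2, 5.79, 5.87 and 5.87 with EZH2 and 6.15, 6.31 and 6.10 with T350A (-0.89 ± 0.12, adjusted p = 0.00286). Re-expression took it 0.39 below si-Control, a difference that missed the threshold (adjusted p = 0.056). POU2F2, an octamer-binding transcription factor, fell by 0.79 ± 0.12 (adjusted p = 0.00617), and SLC1A3, a glutamate transporter, by 0.81 ± 0.14 (adjusted p = 0.00937, and 0.0693 without si-EZH2 replicate 1). POU2F2 was detected on 1 of 3 EZH2 and 2 of 3 T350A re-expression arrays, and SLC1A3 on 2 of 3 and 3 of 3. INHBA, which encodes the activin A subunit, was detected in 0 of 6 re-expression arrays and was at least 1.28-fold lower (adjusted p = 0.00656). DGAT2, an enzyme of triglyceride synthesis, read 5.61, 5.49 and 6.10 in si-EZH2 and 4.62 to 5.46 with re-expression (-0.87 ± 0.21, adjusted p = 0.0413), and its call was lost in 8 of the 12 fits that left out an array (highest adjusted p 0.201). DGAT2 was detected on 1 of 3 EZH2 and 0 of 3 T350A re-expression arrays, so the size of its fall is uncertain.

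Of 32 growth factors and receptors 4 were called lower, INHBA among them, and 0 higher (12.5%, against 3.1% of all genes tested). Their median was -0.12. RSPO3, an amplifier of Wnt signalling, read 6.37, 5.58 and 5.96 in si-EZH2, 5.64, 5.35 and 5.70 with EZH2 and 5.27, 4.93 and 4.92 with T350A. The groups overlapped through EZH2 re-expression, and the pooled fall of 0.67 (adjusted p = 0.0251) averaged -0.41 with EZH2 and -0.94 with T350A. RSPO3 was named in part for its T350A minus EZH2 difference of -0.53 (95% interval -0.88 to -0.17, adjusted p = 0.39), which was not called. FGF5 was at -0.56 (adjusted p = 0.0303) with a further probe at 0.17, and the EGF-family ligand EREG at -0.44 (adjusted p = 0.0317). The calls of RSPO3, FGF5 and EREG were lost, among others, without si-EZH2 replicate 1 (adjusted p 0.142, 0.097 and 0.126) and without si-EZH2 replicate 3 (0.102, 0.132 and 0.146).

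Among the rises, RNFT2, a membrane-bound RING finger protein, read 5.82, 5.67 and 6.12 in si-EZH2, 6.75, 6.93 and 6.90 with EZH2 and 6.68, 6.67 and 6.51 with T350A. All 6 arrays lay above si-EZH2, as its naming required, and also above si-Control at 6.10, 6.26 and 6.16. The pooled rise was 0.87 ± 0.10 (adjusted p = 0.00116), and RNFT2 was 0.56 above si-Control (adjusted p = 0.00381). Its dimmer probes gave 0.21 (adjusted p = 0.292) and -0.00.

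TMSB15A, a thymosin that binds actin monomers, read 7.18, 7.29 and 7.20 in si-EZH2, 8.39, 8.21 and 8.04 with EZH2 and 7.80, 7.5 and 7.75 with T350A (0.73 ± 0.10, adjusted p = 0.00325). The mutant lay 0.53 below EZH2 (95% interval -0.78 to -0.29, adjusted p = 0.195), between it and si-EZH2. TMSB15A was named in part for this difference, which was not called. CD14, the coreceptor for bacterial lipopolysaccharide, read 6.94, 6.89 and 6.98 in si-EZH2, 7.73, 7.68 and 7.95 with EZH2 and 7.44, 7.61 and 7.35 with T350A (0.69 ± 0.09, adjusted p = 0.00286). CD14 is also a marker of monocytes, and of the 9 leukocyte markers it and the B cell receptor chain CD79A (0.36, adjusted p = 0.0491) were the ones called. The CD79A call was lost in 11 of the 12 fits that left out an array (highest adjusted p 0.151 without si-EZH2 replicate 3), and another CD79A probe was at -0.34 (adjusted p = 0.133). The summed level of those markers is given above, and a part of leukocytes in the CD14 rise was not tested.

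KLLN, a p53-regulated gene, rose with both forms and read 5.18, 4.76 and 5.23 in si-EZH2, 5.74, 5.78 and 5.65 with EZH2 and 5.53, 5.81 and 5.72 with T350A. The rise was 0.65 ± 0.11 (adjusted p = 0.00977), with a difference between the forms of -0.04 (95% interval -0.32 to 0.24). KLLN, like H19 below, was among the genes named because the forms differed little. H19, an imprinted long non-coding RNA, read 5.43, 5.21 and 5.20 in si-EZH2, 6.03, 5.98 and 5.69 with EZH2, 5.96, 5.84 and 6.0 with T350A and 4.61, 5.21 and 5.10 in si-Control. It rose by 0.64 ± 0.13 (adjusted p = 0.0183), and stood 0.94 above si-Control (adjusted p = 0.000461). The H19 call was lost without si-EZH2 replicate 1, 2 or 3 (adjusted p = 0.0574, 0.0552 and 0.0995). Further rises of at least 1.5-fold included those of the proline pathway enzyme ALDH4A1 (0.68, adjusted p = 0.00899), CCDC24 (0.68, adjusted p = 0.00816), FAM174B (0.67, adjusted p = 0.0114) and the folate enzyme SHMT1 (0.60, adjusted p = 0.0153). All 4 calls were lost without si-EZH2 replicate 1 (adjusted p 0.0622, 0.0533, 0.0818 and 0.077) and without si-EZH2 replicate 3 (0.0512, 0.058, 0.0829 and 0.0995), and another SHMT1 probe was at -0.19 (adjusted p = 0.491). Dimmer ALDH4A1 probes were at 0.76 (adjusted p = 0.00215), 0.26 (adjusted p = 0.178) and 0.14 (adjusted p = 0.571). The kinase RPS6KA1, detected in 0 of 3 si-EZH2 arrays, was at least 1.29-fold higher (adjusted p = 0.0123, and 0.0906 without si-EZH2 replicate 3). SAMD14 rose by 0.63 (adjusted p = 0.0295), a call lost in 6 of the 12 fits that left out an array (highest adjusted p 0.163 without si-EZH2 replicate 1).

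Part of the genes of the G2 and M phases rose, with values that varied between the forms and between the si-EZH2 arrays. Of 32 measured members 8 were called higher and 0 lower (25%, against 3.1% of all genes tested), 27 were above 0, and the median was 0.28. The median was 0.42 with EZH2 and 0.18 with T350A, and 29 of 32 were lower with the mutant, of which 0 were called. The number called was 1 without si-EZH2 replicate 1, 2 without si-EZH2 replicate 3 and 11 without si-EZH2 replicate 2. It was 3 to 5 without an EZH2 re-expression array, 4 to 6 without a T350A array and 14 when only probes with a detection p below 0.01 on every array were tested. The list's median level relative to each gene's mean was -0.26, -0.05 and -0.27 on si-EZH2 replicates 1, 2 and 3, between 0.20 and 0.30 with EZH2 and between -0.11 and -0.04 with T350A. T350A replicates 1 and 2 thus lay below si-EZH2 replicate 2, while the EZH2 arrays lay above all si-EZH2 arrays.

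BIRC5, which encodes the mitotic protein survivin, read 6.66, 7.09 and 6.66 in si-EZH2, 7.54, 7.80 and 7.69 with EZH2, 7.21, 7.57 and 7.40 with T350A and 7.76, 7.95 and 7.88 in si-Control. Re-expression raised it by 0.73 ± 0.11 (adjusted p = 0.00621, and 0.0546 without si-EZH2 replicate 1) towards the si-Control level. PBK, a mitotic kinase, read 6.17, 6.46 and 6.39 in si-EZH2, 7.09, 7.12 and 7.05 with EZH2 and 6.59, 6.72 and 6.64 with T350A (0.53, adjusted p = 0.00899, and 0.0669 without si-EZH2 replicate 1). PTTG1, or securin, was at 0.50 (adjusted p = 0.0153, and 0.103 without si-EZH2 replicate 3) and the mitotic kinesin KIF20A at 0.54 (adjusted p = 0.0247), and both overlapped between the groups. PTTG1 averaged 0.74 with EZH2 and 0.25 with T350A, and KIF20A 0.82 and 0.25. A further PTTG1 probe was at 0.28 and was not called (adjusted p = 0.176). The KIF20A call was lost in 4 of the 12 fits that left out an array (highest adjusted p 0.142 without si-EZH2 replicate 1). The remaining calls, chosen after their values were seen, were NUSAP1 (0.56), the centromere histone CENPA (0.49), the cyclin CCNB2 (0.43) and the ubiquitin-conjugating enzyme UBE2C (0.37). With EZH2 and T350A in turn, NUSAP1 was at 0.72 and 0.40, CENPA at 0.78 and 0.21, CCNB2 at 0.70 and 0.15 and UBE2C at 0.53 and 0.21. Each of those 4 was lost in 6 to 9 of the 12 fits.

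The cell cycle outside G2/M shifted little. Of 28 genes of DNA replication and nucleotide synthesis 1 was called, the thymidine kinase TK1 (3.57%, against 3.1% of all genes tested). The list's median was 0.06. TK1 read 8.05, 8.09 and 7.85 in si-EZH2, 8.92, 8.90 and 8.92 with EZH2 and 8.19, 8.41 and 8.18 with T350A (0.59 ± 0.09, adjusted p = 0.00679, and 0.0512 without si-EZH2 replicate 3). The pooled value averaged a difference of 0.92 with EZH2 and of 0.27 with T350A, which was 0.65 below EZH2 (95% interval -0.89 to -0.42, adjusted p = 0.0815). Of 12 CDK inhibitors and members of the RB family 1 was called (8.33%), the phosphatase CDKN3, which dephosphorylates CDKs. CDKN3 read 6.88, 6.72 and 6.89 in si-EZH2, 7.36, 7.41 and 7.49 with EZH2 and 7.19, 7.22 and 7.24 with T350A (0.49 ± 0.08, adjusted p = 0.00937). Of 20 p53 target genes 0 were called, and the median was 0.00.

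**Figure D4:**
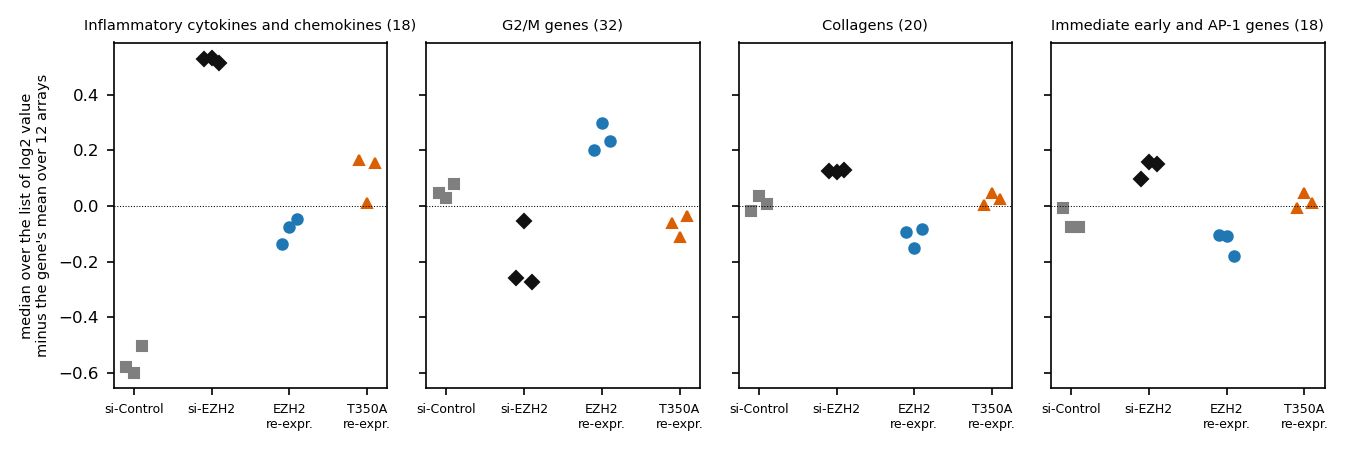
Median over the genes of 4 lists of the log2 value minus the gene's mean over the 12 arrays (vertical axis), 1 panel per list, with a point per array and the groups along the horizontal axis. Inflammatory genes are highest in si-EZH2 (0.51 to 0.53), with both re-expressions between si-EZH2 and si-Control, and si-EZH2 replicate 2 (-0.05) stands above the other si-EZH2 arrays in the G2/M genes.

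Of 22 contractile and TGF-beta response genes 3 were called higher and 0 lower (13.6%, against 3.1% of all genes tested). The list had 11 above and 11 below 0 and a median of -0.00, and 1 was called without si-EZH2 replicate 1 or 3. ID3, an inhibitor of differentiation factors, read 10.04, 9.99 and 9.91 in si-EZH2, 10.66, 10.60 and 10.64 with EZH2 and 10.59, 10.45 and 10.43 with T350A (0.58 ± 0.08, 1.5-fold, adjusted p = 0.00325). All re-expression arrays exceeded both si-EZH2 and si-Control (10.26, 10.37 and 10.37), although the pooled difference from si-Control was 0.22 and missed the threshold (adjusted p = 0.103). Its paralog ID1 rose by 0.56 ± 0.11 (adjusted p = 0.013) and SMAD6, a feedback inhibitor of BMP receptors, by 0.58 ± 0.10 (adjusted p = 0.00937). A dimmer ID1 probe was at 0.31 and was not called (adjusted p = 0.229). The difference between T350A and EZH2 was -0.15 for ID3 (95% interval -0.35 to 0.05) and 0.09 for SMAD6 (95% interval -0.15 to 0.34). Without si-EZH2 replicate 1 the adjusted p was 0.0574 for ID1 and 0.0649 for SMAD6, and without si-EZH2 replicate 3 it was 0.0865 and 0.0699. ID2 (0.21, adjusted p = 0.342) and the related inhibitor SMAD7 (-0.20, adjusted p = 0.327) were not called.

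Of 20 collagens 4 were called lower (1.63% of all genes tested) and 0 higher, with a median of -0.15, and 1 was called without si-EZH2 replicate 1 or 3. The 10 fibroblast markers, which include COL1A1, COL1A2 and COL3A1, had a median of -0.15 as well with 0 called, and their part in the collagen shift was not tested. COL6A1, a chain of the microfibrillar collagen VI, read 13.19, 12.94 and 13.27 in si-EZH2, 12.34, 12.21 and 12.36 with EZH2 and 12.64, 12.82 and 12.59 with T350A (-0.64 ± 0.10, adjusted p = 0.00812). Its call was lost without si-EZH2 replicate 1 (adjusted p = 0.0574) or 3 (adjusted p = 0.058). COL5A3, a chain of collagen V, read 7.59, 7.66 and 7.63 in si-EZH2, 6.71, 7.05 and 6.69 with EZH2 and 7.34, 7.23 and 7.16 with T350A (-0.59 ± 0.10, adjusted p = 0.00899). In both genes T350A lay between EZH2 and si-EZH2, by 0.38 above EZH2 in COL6A1 and by 0.43 in COL5A3. In COL15A1 the EZH2 arrays lay below si-EZH2 and those of T350A overlapped with it: the gene read 11.41, 11.16 and 11.25 in si-EZH2, 10.40, 10.38 and 10.45 with EZH2 and 10.91, 11.23 and 11.02 with T350A (T350A minus EZH2 0.64, 95% interval 0.41 to 0.88, adjusted p = 0.0918). The pooled fall of COL15A1 was 0.54 (adjusted p = 0.0111, and 0.0813 without si-EZH2 replicate 1 and 0.0527 without replicate 3). That of COL6A2, another collagen VI chain, was 0.42 (adjusted p = 0.0361). The COL6A2 call was lost in 7 of the 12 fits that left out an array (highest adjusted p 0.196 without si-EZH2 replicate 1). Its dimmer probes were at -0.57 (adjusted p = 0.00569) and -0.03 (adjusted p = 0.932).

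Of 27 matrix glycoproteins and proteoglycans 5 were called lower and 1 higher (22.2%, against 3.1% of all genes tested). The median was -0.17, and 1 was called lower without si-EZH2 replicate 1 or 3. The small proteoglycans FMOD (-0.50, adjusted p = 0.0122) and PRELP (-0.39) were among those lower, as was HAS2 above. The single rise was MGP, an inhibitor of calcification, at 10.90, 10.86 and 11.01 in si-EZH2, 11.22, 11.43 and 11.20 with EZH2 and 11.53, 11.64 and 11.52 with T350A, against 10.04, 9.84 and 9.99 in si-Control. Re-expression thus moved MGP further from si-Control, by 0.49 ± 0.09 (adjusted p = 0.0114, and 0.0678 without si-EZH2 replicate 1), to 1.46 above it. The T350A arrays were the higher ones, by 0.28 (95% interval 0.07 to 0.50, adjusted p = 0.465), and a further MGP probe rose by 0.60 (adjusted p = 0.00325).

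Of 20 matrix proteases and inhibitors 3 were called higher and 1 lower (20%, against 3.1% of all genes tested), with a median of 0.07. MMP3, or stromelysin, read 13.13, 13.11 and 13.07 in si-EZH2, 13.83, 13.78 and 13.87 with EZH2 and 13.09, 13.33 and 13.20 with T350A, against 11.73, 11.91 and 11.78 in si-Control. Its pooled rise of 0.41 ± 0.08 (adjusted p = 0.0213) averaged a rise with EZH2 of 0.72 and a difference of 0.10 with T350A (T350A minus EZH2 -0.62, 95% interval -0.83 to -0.41, adjusted p = 0.0637). The others called higher were MMP11 (0.48, adjusted p = 0.0319), for which si-EZH2 minus si-Control was -1.20, and ADAMTS1 (0.39, adjusted p = 0.0362). Their calls were lost in 7 and 8 of the 12 fits that left out an array, with the highest adjusted p of 0.168 and 0.157 without si-EZH2 replicate 1. The MMP3 call was lost without si-EZH2 replicate 1 (adjusted p = 0.0871) or 3 (adjusted p = 0.101), and its groups overlapped. MMP7, or matrilysin, fell by 0.67 (adjusted p = 0.0153), and by 0.96 on its other probe (adjusted p = 0.00887), with the first call lost without si-EZH2 replicate 1 or 3 (adjusted p = 0.097 for each).

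**Figure D5:**
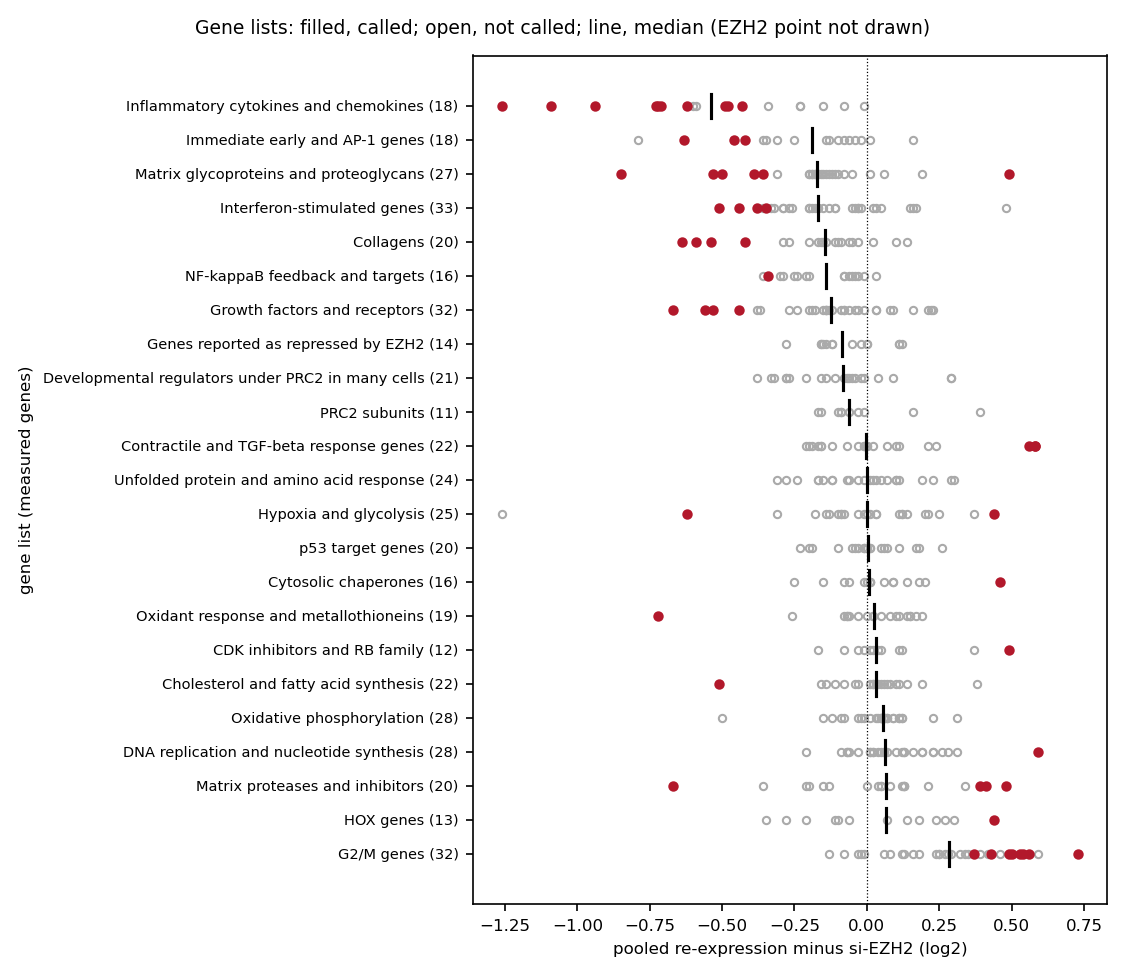
Difference between pooled re-expression and si-EZH2, in log2 units, for the measured members of each gene list, with a filled point per called gene, an open point per gene not called and a line at each list's median (the EZH2 point is not drawn). The inflammatory list has the lowest median (-0.54) and the G2/M list the highest (0.28), against -0.01 over all genes tested.

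Lists tied to Polycomb repression held 0 or 1 called genes each. Lists this short cannot show whether their share differed from the 3.1% called among all genes tested. Of 25 HOX genes on the array 13 were measured and 1 was called, HOXD11 (0.44, adjusted p = 0.0251), with a median of 0.07. That call was lost without any one of the si-EZH2 arrays and without EZH2 re-expression replicates 1 or 2 (highest adjusted p 0.0998). Of 38 developmental regulators on the array 21 were measured, 0 were called and the median was -0.08. Of 19 genes reported as repressed by EZH2, 14 were measured, 0 were called and the median was -0.08. Members not measured were below the detection filter, and no value is given for them.

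Metabolic and stress lists were near the background. Of 24 genes of the unfolded protein response and 28 of oxidative phosphorylation 0 were called. Of 16 chaperones 1 was called higher, the small heat shock protein HSPB8 (0.46, adjusted p = 0.0213), lost without any one of the si-EZH2 arrays (highest adjusted p 0.105). Of 25 hypoxia and glycolysis genes 1 was called higher, the aldolase ALDOC (0.44, adjusted p = 0.0184, and 0.114 and 0.0829 without si-EZH2 replicates 1 and 3), and 1 lower, STC1. Of 22 genes of cholesterol and fatty acid synthesis 1 was called lower, CH25H, with a median of 0.03, and of 19 genes of the oxidant response and metallothioneins 1 was called lower, SLC39A8, with a median of 0.02.

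Of the 392 called genes, 82 passed the test in the pooled comparison and in neither single comparison, and 3 of them are described first. RB1-DT, the transcript divergent from RB1, differed by 0.49 pooled (adjusted p = 0.0213), by 0.40 with EZH2 (adjusted p = 0.0808) and by 0.59 with T350A (adjusted p = 0.0608). CAPS, a calcium-binding protein, differed by 0.55 pooled (adjusted p = 0.0245), by 0.50 with EZH2 (adjusted p = 0.0612) and by 0.61 with T350A (adjusted p = 0.0743), while another CAPS probe was at -0.30 pooled (adjusted p = 0.29). AP5B1, a subunit of an adaptor complex, differed by -0.67 pooled (adjusted p = 0.0151), by -0.53 with EZH2 (adjusted p = 0.0679) and by -0.81 with T350A (adjusted p = 0.0504). All 6 re-expression arrays stood apart from si-EZH2 in each of the 3 genes. The pooled call was lost without si-EZH2 replicate 1 for all 3 (adjusted p 0.0744, 0.139 and 0.097), and further arrays mattered for CAPS, lost in 4 of the 12 fits, and for RB1-DT, lost in 3. Other genes named for this reason were less stable. The calls of PIM3, SNX15, ZEB1 and CYYR1 were lost in 9, 8, 7 and 7 of the 12 fits, and another SNX15 probe was at -0.04 (adjusted p = 0.92).

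Pooled re-expression also differed from si-Control at many probes. Between pooled re-expression and si-Control 1903 of 23313 probes were called (8.16%), 942 higher (4.04%) and 961 lower (4.12%), and 314 of them by at least 1.5-fold (1.35%). The higher share was 49.5%, and 23.9% of the 2400 called under median scaling. Dropping si-Control replicate 1 left 912 calls and dropping si-Control replicate 3 left 1000, and a term for chip section left 685. Of the inflammatory list 11 of 18 were called in this comparison (9.87% of all genes tested), with a median of 0.58, where the median of si-EZH2 against si-Control was 1.19. Probes called higher in pooled re-expression minus si-EZH2 had a median of 0.31 against si-Control, and those called lower a median of -0.25, while the si-EZH2 arrays stood at -0.19 and 0.21 against si-Control. Of the 558 probes called against si-EZH2, si-EZH2 minus si-Control had called 110 in the opposite direction, 3 in the same direction and 445 not at all. Both comparisons with si-Control share arrays with the one that chose the probes, so the medians and counts are a description.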

How the data were processed

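Illumina BeadChip expression was measured in 12 arrays of BJ cells, 3 in each of 4 groups, all on 1 chip. The si-Control arrays sat in chip sections 1, 3 and 6 and the si-EZH2 arrays in 5, 7 and 8. Those of EZH2 re-expression were in 9, 10 and 11 and those of T350A re-expression in 2, 4 and 12. Section was thus partly tied to group, and their effects cannot be fully told apart. The deposited non-normalized table held linear intensities of 47231 probes without background subtraction. Per the file headers, each came with a detection p-value (steps of 1 in 770). The authors' normalized table gave linear intensity for 47229 probes, each array a monotone function of its raw signal (rank correlation 1), by a method not given in the sources used here. Symbols came from the platform annotation, with 30113 probes holding a single symbol.

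Background correction, quantile normalization and the log2 step were done with neqc on the deposited intensities (limma 3.58.1, R 4.3.3, jsonlite 2.0.0, offset 16), and 23313 probes with detection p under 0.05 on at least 3 arrays were tested. The 4 group means were fitted together over 12 arrays, with limma's moderated 2-sided test and Benjamini-Hochberg adjustment over all tested probes. A fold against a group that detected a probe on 0 arrays is a lower bound, computed against each array's detection limit. In a simulation of the pooled comparison over 23313 probes, 46 of 67 changes of 1.5-fold, 65 of 67 of 2-fold and 66 of 66 of 4-fold were recovered, with 8 false among 185 calls.

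The comparison and the 23 gene lists were chosen with earlier results of these data known. Each gene was represented by its brightest tested probe. Named genes were up to 12 rises and 12 falls whose 6 re-expression arrays lay on 1 side of si-EZH2, up to 4 called members per list by adjusted p, the PRC2 subunits, up to 6 called genes of at least 1.5-fold most alike and up to 4 each way most unlike between the forms, up to 6 each way called in neither single comparison, and up to 4 each way already called in the same direction after knockdown. Alternatives were another background correction, scaling, offset, filter, moderation, array weights, block, chip section, the authors' values, 1 probe per gene, only the groups compared, a fold minimum, and leaving out each array.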

Additional observations from a re-analysis of the deposited data

Results flagged for a closer look

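Among the 24 genes named for the largest pooled changes, 2 had 1 re-expression array set apart from the other 5 by a gap above Dixon's 95% critical value for 6 samples. Such a ratio is exceeded by chance in about 1 of 20 groups. DGAT2 (ILMN_1681520) read 5.46 on EZH2 re-expression replicate 2, above the next array at 4.86 (ratio 0.71). SLC39A8 (ILMN_1695316) read 9.75 on T350A re-expression replicate 1, above the next at 9.53 (ratio 0.694). EZH2 itself differed between the re-expressions on ILMN_2364529, where T350A was at -1.29 relative to EZH2 by limma (adjusted p = 0.000254), lower in 3 of 3 arrays.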

How the results depend on the processing

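In the pooled comparison with si-EZH2 the 558 calls became 94 with a fold of at least 1.5, 1318 with no background correction, 1461 with an offset of 50, 1347 on the authors' values, 1365 with detection p under 0.01 on all 12 arrays and 1389 with limma-trend and robust moderation. Leaving out 1 array gave 71 to 522. Between T350A and EZH2 re-expression the 2 calls became 29, 43, 32, 14 and 50 under the last 5 of those settings, 4 with no filter and 6 with 1 probe per gene, and 1 to 3 without 1 array. Against si-Control the 1903 calls became 314 with the fold minimum, 2980 with the offset of 50, 2884 on the authors' values, 2877 with limma-trend and 685 with chip section as a covariate, and 912 to 1886 without 1 array. With the replicate number as a block the counts were 470, 2 and 1802. Deviations of same-numbered arrays of different groups correlated weakly (18 pairs, -0.0363 to 0.0709, median 0.0156). In the 36 pairs with unlike numbers the correlations ran from -0.0575 to 0.0421 (median -0.00722). Such values over all probes cannot show whether arrays of the same number were handled together. Of 76 named probes that were called, 19 kept their call under every alternative that held the probe and 57 lost it in at least 1, with 0 reversed. The smallest difference called was 0.325 against si-EZH2 and 0.269 against si-Control.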

Other observations

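Apart from the EZH2 probes, the largest pooled rise was on probe ILMN_3214893, which has no gene symbol in the annotation used. Its mean log2 level was 7.03 in si-EZH2, 8.27 with EZH2 re-expression, 8.09 with T350A re-expression and 6.68 in si-Control. It rose by 1.15 ± 0.16 in the pooled comparison (limma, adjusted p = 0.00327), higher in 6 of 6 re-expression arrays than in any si-EZH2 array, and T350A differed from EZH2 by -0.19 (adjusted p = 0.833). The probe was chosen after its values were seen.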
